A study of Homo sapiens with 24 samples.

Results

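The comparison of MYC siRNA with PBS control at 48 h comprised 10 of the 24 RNA-seq libraries of the study, 4 labelled siRNA and 6 labelled control, chosen by their labels and by the columns of the 48 h table. The cells were described as U2932, an established line from a diffuse large B-cell lymphoma, kept in RPMI medium with fetal bovine serum. The siRNA group was labelled as a MYC knockdown and received siRNA at 500 nM by electroporation, with RNA taken at 48 h. The controls were labelled wild type, were described as PBS treated and were collected at the same time. No electroporated control and no control siRNA was named, so effects of the siRNA sequence, of introduced RNA and of electroporation cannot be told apart in any result below. Each of the 4 siRNA libraries carried a different cell line entry, none of them U2932, although their treatment text named U2932. Nothing in the labels tells if replicates came from separate cultures. The p values therefore measure the spread between these libraries, which may be technical. The stated question was which transcripts differ once MYC is knocked down.

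MYC is a transcription factor that binds DNA together with its partner MAX and raises transcription of genes for ribosome production, nucleotide synthesis and cell growth. MXD proteins, MXI1 and MNT pair with MAX as well and oppose it. Through MIZ1 and other partners MYC is also known to lower genes of growth arrest, and in B-cell lymphoma it is a common driver of proliferation. In the germinal centre BCL6 holds B cells in a proliferating state, while PRDM1 and XBP1 drive the plasma cell programme.

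The deposited 48 h values are reads adjusted per gene and batch, and the whole reads behind them were recovered for all but 13 of 61541 genes. The recovered reads summed to 13.2 to 17.1 M (1e6 reads) in controls 1, 2 and 4, to 7.25 to 9.35 M in control 3 and the 2 unnumbered controls (a and b), and to 14.98 to 19.2 M in the siRNA libraries. The siRNA libraries share a batch, called batch A, with controls 1, 2 and 4, and the other 3 controls are batch B. Levels below are reads divided by a scale per library (scaled reads), and they compare one gene across libraries, not different genes. Changes are differences of log2(scaled reads + 1) between the siRNA libraries and the batch A controls from a limma model with a batch term, and "called" means an adjusted p under 0.05 over all genes tested. The batch B controls enter the filter, the scale per library and the spread behind the p values, but not the difference itself. Control 4 stood apart within batch A. Its chi-square per degree of freedom against controls 1 and 2 was 11.6 and 9.70, while controls 1 and 2 differed by 3.07 and pairs of siRNA libraries by 2.58 to 4.52. It lay above controls 1 and 2 in 72.1% of the genes called higher and below them in 67.1% of those called lower, against 37.3% and 39.9% of genes not called. Its part in the results was not tested, and counts without it are given beside those with it.

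The defining B-cell genes were present in all libraries. PAX5, the master regulator of B-cell identity, had 6874 to 7322 scaled reads in batch A controls, 7061 to 7632 in batch B controls and 7246 to 7559 in the siRNA libraries. CD79A, a subunit of the B-cell receptor, had 8248 to 10814, 8395 to 9426 and 11017 to 11842 in the same order. MS4A1, which encodes CD20, differed between control batches, with 15066 to 17873 in batch A and 2971 to 3817 in batch B. Myeloid markers were under 10 scaled reads in all 10 libraries for 12 of 13 genes, with S100A8, S100A9 and FCN1 at 0, and erythroid and megakaryocyte markers for 11 of 13, with ALAS2 and AHSP at 0. T and NK cell markers were under 10 for 11 of 16, with CD3D, CD2 and GNLY at 0. Their summed level was 222 to 412 in batch A controls, 119 to 139 in batch B controls and 405 to 439 in the siRNA libraries. Of the 4 tested, TRAC was called higher, with a log2 change of 0.77 and 121, 124 and 253 in controls 1, 2 and 4 against 258 to 279 in siRNA. The call of TRAC was lost without control 1 or control 2 (highest adjusted p = 0.0912). Stroma and epithelium markers were under 10 for 10 of 14, and of 3 tested, PECAM1 was called higher by 0.85, a call not made without control 2 or against all 6 controls. Their summed level was 206 to 282, 92.2 to 134 and 282 to 310 in the same order of groups, and the part of other cells in the results was not tested.

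MYC itself (ENSG00000136997, GRCh38 chromosome 8, 127735434 to 127741434, forward strand) was lower in every siRNA library than in every control. The recovered reads were 5533, 4203 and 4642 in controls 1, 2 and 4, 8773 in control 3, and 10930 and 9867 in unnumbered controls a and b. They were 2223, 1843, 1761 and 2214 in siRNA libraries 1 to 4. Scaled, MYC stood at 4149 ± 228 (SD, n = 3) in batch A controls, 16710 ± 630 (SD, n = 3) in batch B controls and 1489 ± 14.2 (SD, n = 4) in siRNA. The siRNA level was 2.79-fold lower than in batch A controls, a log2 change of -1.48 (SE 0.05, 95% CI -1.59 to -1.36, limma adjusted p = 2.25e-10). An exact two-sided permutation test within batch A gave p = 0.0286 over 35 arrangements, the smallest it allows. Against all 6 controls without a batch term the log2 change was -2.48 (adjusted p = 0.0106, exact permutation p = 0.0143 over 210 arrangements), and against batch B controls alone -3.48. The controls of the 2 batches thus differed in MYC by more than the siRNA libraries differed from their own controls. In the deposited batch-adjusted values, which were changed per gene and batch, the log2 change was -0.90. With the recovered reads of the 2 batches aligned on their control means it was -0.42 (limma adjusted p = 8.5e-05). That alignment adds the same number of scaled reads per gene to every batch A library. For MYC, which was lower in batch A controls than in batch B controls, the addition makes the log2 change smaller in size.

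**Figure D1:**
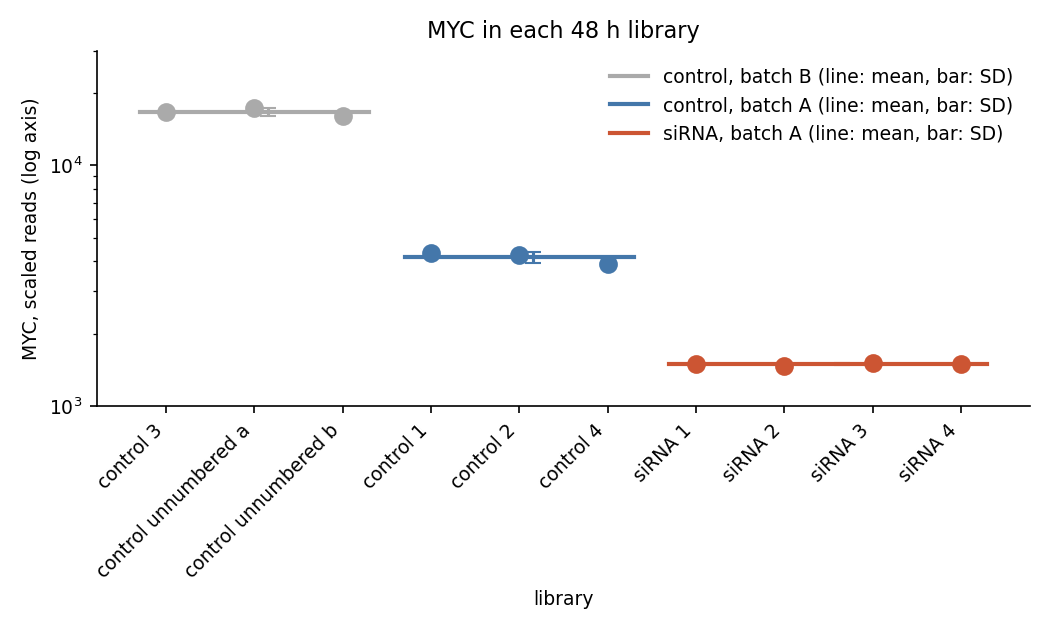
MYC in scaled reads (log axis) for each of the 10 libraries, with the mean (line) and SD (bar) of each group. The siRNA libraries lie between 1473 and 1507, batch A controls between 3889 and 4319, and batch B controls between 16135 and 17382.

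The list of MYC with its partners and rivals held 13 genes, and 10 were tested. Of these, 3 were called lower, MYC itself among them, and 2 higher (counts of 3 and 2 without control 4). Without control 1 the counts were 2 lower and 1 higher, and without control 2 they were 3 and 2. Over all genes tested the shares were 13.1% lower and 12.3% higher. MAX, the obligate partner, had 941, 895 and 897 scaled reads in controls 1, 2 and 4 and 887 to 950 in siRNA, with a log2 change of 0.01 (adjusted p = 0.942). MXI1, a MAX-binding antagonist, fell by 0.85 on the log2 scale (adjusted p = 0.000106). It stood at 232, 212 and 175 in controls 1, 2 and 4, 234 to 268 in batch B controls and 109 to 115 in siRNA, with no overlap. MXD3, another antagonist, rose by 0.48 (adjusted p = 0.000304), from 460 to 519 in batch A controls to 637 to 717 in siRNA. MXD4 was called higher by 0.23 and MNT lower (-0.21), but both calls were lost when single libraries were left out. For MXD4 these were control 1, siRNA 3 or siRNA 4 (adjusted p up to 0.126), and for MNT controls 1 or 4 or siRNA 1, 2 or 4 (up to 0.136). MXD4 lay below batch B controls, which held 2246 to 2586 against 1738 to 1937 in siRNA, so against batch B controls alone its change was -0.40. MXD3 was at -0.06 in the deposited values against batch B controls alone, but at 0.21 in recovered reads against the same controls. MNT was at 0.01 with no scaling. MXD1, MLX, MLXIP and MGA had changes of 0.09, -0.14, 0.09 and -0.00 and were not called, while MYCN, MYCL and MLXIPL did not pass the filter on low reads.

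Across the transcriptome 13710 genes were tested, and 1693 (12.3%) were called higher and 1798 (13.1%) lower, or 25.5% in all. Counts in every gene list are to be read beside these shares. The median log2 change over all genes tested was 0.01. Of the called genes, 230 rose and 76 fell by at least 2-fold, and the median changes were 0.44 and -0.36. The filter on low reads can be met by the siRNA libraries alone, but not by the batch A controls alone. The number of the 230 genes that passed only through the siRNA libraries was not counted. The counts of 230 and 76 therefore cannot tell if large increases outnumbered large decreases. The siRNA libraries did not overlap batch A controls in 40.1% of all genes tested and in 3323 of the 3491 called. The split of calls depended on the scaling, with 2048 higher and 1373 lower when libraries were scaled to their totals, 1396 and 2116 with upper-quartile scaling, and 2230 and 143 with no scaling, which moved the median of all genes to 0.24. The call numbers were 1870 and 1968 without control 4, but 1046 and 1153 without control 1 and 1002 and 1118 without control 2. Against all 6 controls without a batch term, 1596 were called higher and 1885 lower, or 25.4%. With batch B left out of the fit, 2463 were called higher and 2535 lower of 13853 tested. In the deposited values 2346 were called higher and 2219 lower, or 33.3%, and 3431 genes were called with both kinds of value, all in the same direction.

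**Figure D2:**
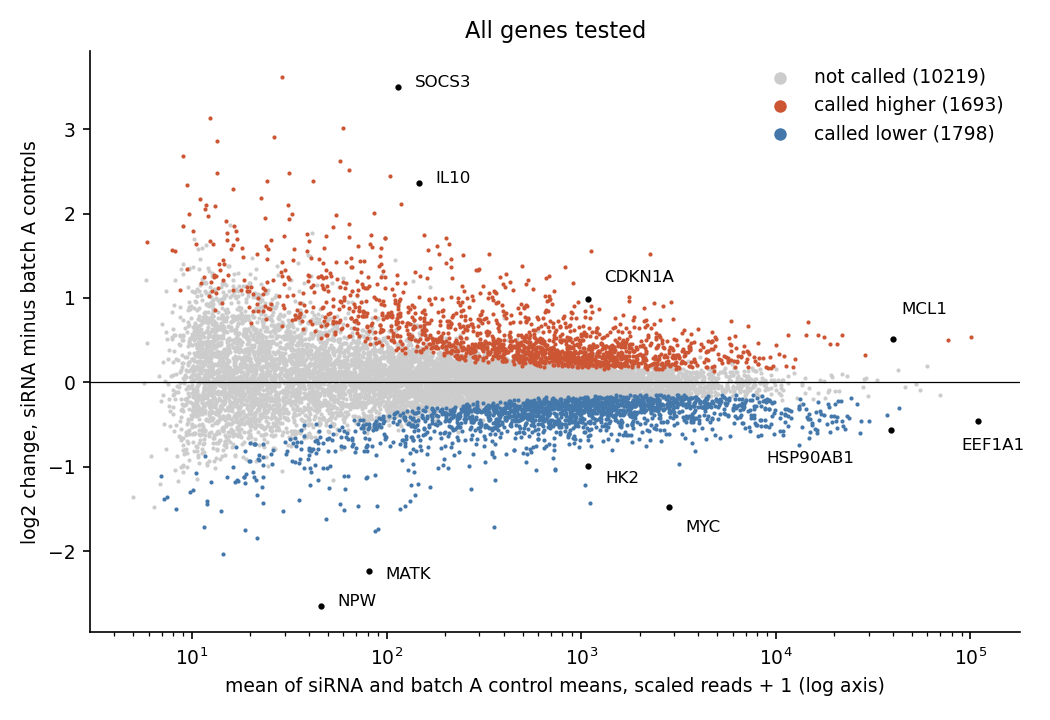
Log2 change of each of the 13710 genes tested (siRNA minus batch A controls) against its mean level in scaled reads plus 1 (log axis), coloured by call. MYC lies at -1.48 and SOCS3, the largest of the named increases, at 3.50.

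The 12 named decreases, ranked by the smaller of their changes against each control batch, were NPW, MATK, HHIP, LRFN1, MEX3A, LRFN4, RASL10B, LGR5, CPNE7, NAT8L, VWCE and PLD6. NPW, which encodes the neuropeptide W precursor, had 71.8, 91.7 and 66.2 scaled reads in controls 1, 2 and 4, 555 to 644 in batch B controls and 2.68, 16.8, 16.3 and 18.8 in siRNA libraries 1 to 4. Every siRNA library lay below every control, and siRNA 1 was the lowest (log2 change -2.65, SE 0.42, adjusted p = 0.000388). MATK, a tyrosine kinase of haematopoietic cells related to CSK, went from 130, 140 and 127 to 27.5, 25.6, 24.8 and 31.6 (log2 change -2.24, SE 0.14, adjusted p = 1.95e-07). Batch B controls held 499.9 to 655 MATK reads, so the groups were ordered batch B controls, batch A controls, siRNA, as for MYC. LRFN4 and LRFN1, which encode adhesion molecules with leucine-rich repeats, fell by 1.72 and 1.76 on the log2 scale. LRFN4 stood at 503, 617 and 521 in controls 1, 2 and 4 and at 135, 180, 182 and 165 in siRNA, 3.30-fold lower. LGR5, a receptor for R-spondins that amplify Wnt signalling, fell by 1.53, from 35.2 to 48.4 in batch A controls to 10.3 to 17.5. HHIP, which binds and holds back hedgehog ligands, fell by 1.84, from 25.1 to 43.4 to 5.99 to 11.4. MEX3A, an RNA-binding protein, fell by 1.73, from 133 to 142 down to 26.8 to 47.9. The remaining 5 fell by 1.47 to 1.62. All 12 stayed called when any 1 of the 10 libraries was left out, with adjusted p of 0.00419 or less. Over all 32 alternative fits described below, the calls of NPW, LGR5 and CPNE7 did not always hold (limma adjusted p up to 0.146, 0.177 and 0.255). The rule asks that the siRNA libraries not overlap the 6 controls and ranks by the change against both control batches, so the lack of overlap in these genes and in the increases below was fixed by the choice. Each of the 12 was higher in batch B controls than in batch A controls.

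The named increases reported here were SOCS3, the long noncoding RNA ENSG00000273272, NGB, IL10, SGK1, CD1C, GNB3, HEPACAM2, MTSS1, GJB2 and LRRK2. SOCS3, which shuts off JAK and STAT3 signalling, had 13.3, 9.07 and 41.1 scaled reads in controls 1, 2 and 4, 0, 0 and 1.64 in batch B controls, and 168, 241, 213 and 206 in siRNA 1 to 4. Its log2 change was 3.50 (SE 0.45, adjusted p = 6.8e-05), the groups did not overlap, and control 4 was the highest control. IL10, the cytokine that signals through STAT3 and is known to induce SOCS3, stood at 34.3, 20.2 and 122 in controls 1, 2 and 4 and at 238, 234, 219 and 236 in siRNA (log2 change 2.36, SE 0.49, adjusted p = 0.00251). The groups did not overlap, and control 4 lay nearest to siRNA. SGK1, a kinase induced by glucocorticoids and cell stress, had 31.2, 30.2 and 82.1 in controls 1, 2 and 4 and 163 to 209 in siRNA (log2 change 2.11). NGB, which encodes neuroglobin, rose by 2.52, from 10.1, 13.1 and 39.4 to between 99.1 and 115. LRRK2, a kinase of endolysosomal membranes, rose by 1.71, from 39.3 to 49.4 to between 137 and 172. CD1C, a lipid-presenting molecule, had a change of 2.01, but its call was lost without control 1 (adjusted p = 0.054). It stood at 27.3, 39.3 and 34.4 in controls 1, 2 and 4 and at 132 to 144 in siRNA. Batch B controls, with 0, 7.95 and 6.54 reads of CD1C, add to its SE of 0.53. The other increases reported here stayed called when any 1 library was left out, with adjusted p of 0.0218 or less. ENSG00000273272 is a lincRNA on chromosome 22 (50542650 to 50543011), with a change of 3.02. SOCS3, ENSG00000273272, CD1C, HEPACAM2 and GJB2 each had fewer than 4 controls at 10 or more scaled reads. These genes passed the filter only with the siRNA libraries, where they were high, so their calls are not free of that selection.

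**Figure D3:**
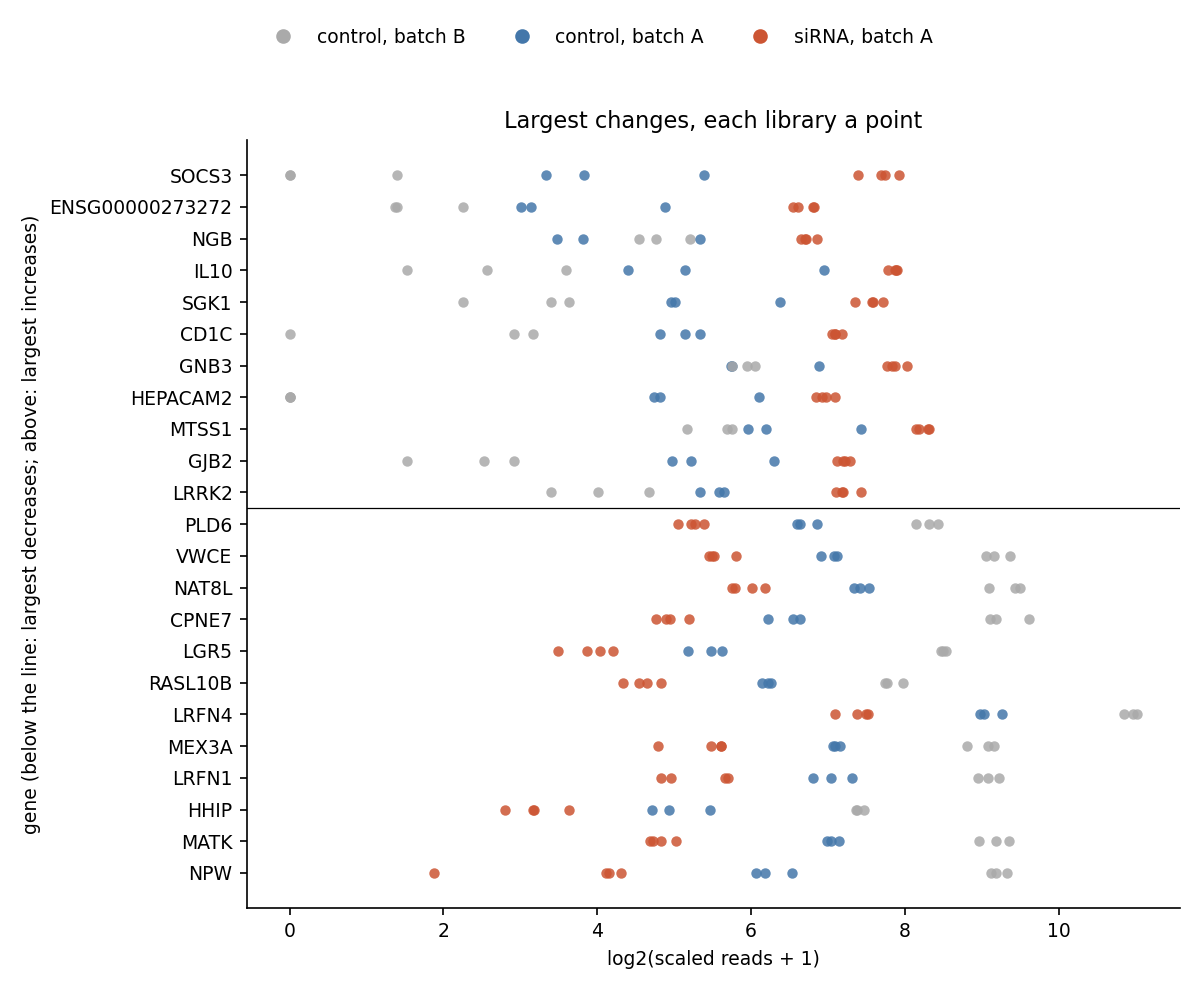
The genes of largest change, each point 1 library as log2(scaled reads + 1), coloured by batch and treatment. The siRNA libraries lie beyond all 6 controls in every row, as the rule that chose these genes required; batch B controls lie on the far side of batch A controls in all 12 decreases, and control 4 (the highest batch A control for SOCS3 at 41.1) is nearest to siRNA for several increases.

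Genes known to be raised by MYC were mostly lower. Of 59 tested, 47 were called lower and 0 higher, beside 13.1% and 12.3% of all genes, and the list median was -0.46. The count was 50 lower without control 4, 43 without control 1 and 42 without control 2. HK2, hexokinase 2, the first step of glycolysis, had 1553, 1449 and 1341 scaled reads in controls 1, 2 and 4, 2556 to 2795 in batch B controls and 774, 707, 745 and 679 in siRNA 1 to 4. All siRNA libraries lay below all controls (log2 change -0.99, SE 0.07, adjusted p = 3.56e-07). SORD, sorbitol dehydrogenase, fell by 0.94, from 370 to 486 in batch A controls to 209 to 233. SLC19A1, the reduced folate carrier, fell by 0.85, from 650 to 721 to 369 to 384. CCND2, cyclin D2, had the largest change of the list, -1.45, at low reads, with 19.5, 9.07 and 20.9 in controls 1, 2 and 4 and 3.20 to 9.41 in siRNA. All siRNA libraries were under 10 reads, so CCND2 passed the filter only through the controls. Its groups overlapped and its call was lost without control 1 or control 4 (highest adjusted p = 0.0756). NOLC1, NCL, FBL and NPM1, which encode nucleolar proteins, fell by 0.81, 0.74, 0.72 and 0.59, while NOP58 (-0.13), GNL3 (-0.12) and NOP2 (-0.17), nucleolar as well, were not called. TERT, the catalytic subunit of telomerase, fell by 0.80. The members not called included E2F1 (0.15), LDHA (-0.07), MCM4 (-0.08) and TFRC (-0.16).

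The letters CACGTG are the E-box that MYC and MAX are known to bind, and they were sought in promoter windows of 250 bases before to 50 after each RefSeq start (GRCh38.p14). The sequence reads the same on both strands, and no other motif was searched. It was in 7.26% of all windows. Counting any listed start, it was in 12.7% of the 10018 tested genes with a window, in 17.9% of those called lower, 11.7% of those called higher and 11.9% of those not called. Among the MYC-activated genes with a window it was in 25 of 47, among ribosome biogenesis genes in 21 of 47, and among ribosomal protein genes in 5 of 67. Among lists with more genes called higher it was in 7 of 20 lysosome and autophagy genes, 5 of 24 MYC-repressed genes and 1 of 20 interferon-induced genes. Of the named largest decreases and increases, 8 each had a window, and 1 of each 8 held the motif. These shares are descriptions with no test. Below are stretches of the windows of the 3 genes of largest decrease among named genes that hold CACGTG (in capitals) before the start, outside annotated exons, each 5′ to 3′ on the gene's strand. LRFN4 is chr11:66856996-66857063 (forward) and HK2 chr2:74834936-74835021 (forward), both inside the GENCODE 29 gene and outside its exons. SLC38A5 is chrX:48470421-48470506 (reverse), upstream of the gene.
LRFN4: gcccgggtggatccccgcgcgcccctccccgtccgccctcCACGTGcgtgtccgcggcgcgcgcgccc
SLC38A5: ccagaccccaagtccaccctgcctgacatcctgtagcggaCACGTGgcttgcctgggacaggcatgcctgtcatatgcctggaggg
HK2: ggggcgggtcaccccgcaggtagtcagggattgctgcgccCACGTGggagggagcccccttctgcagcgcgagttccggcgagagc
The capitals begin 28, 206 and 194 bases before the RefSeq start of LRFN4, SLC38A5 and HK2. The 3 transcripts had log2 changes of -1.72, -1.04 and -0.99.

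The machinery that builds ribosomes was lower. Of 54 ribosome biogenesis genes tested, 41 were called lower and 0 higher, with a median of -0.35 (41 without control 4, 34 without control 1, 35 without control 2). NLE1, needed to mature the large subunit, had 963, 942 and 824 scaled reads in controls 1, 2 and 4 and 545, 521, 561 and 538 in siRNA (log2 change -0.75, SE 0.08, adjusted p = 1.95e-05). The groups did not overlap, with 1178 to 1497 in batch B controls. DDX21, a nucleolar RNA helicase, fell by 0.68. BYSL and TSR1, both of small subunit maturation, fell by 0.53 and 0.49, and NHP2, of the box H/ACA particles that guide pseudouridylation, fell by 0.50. Subunits of RNA polymerase I were among those called, with POLR1A at -0.42, POLR1C at -0.43 and POLR1E at -0.29. NVL (0.04), NMD3 (-0.05) and RRN3 (-0.10) were not called.

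The ribosomal proteins themselves moved together. Of 83 tested, 75 were called lower and 1 higher, with a median of -0.45 (75 lower without control 4, 66 without control 1, 69 without control 2). The one called higher was RPL39L (0.40), a paralogue known for its tissue-restricted expression, and it was not called without control 1 or control 2. RPS24 had 10577, 10757 and 8341 scaled reads in controls 1, 2 and 4 and 6624, 6263, 5603 and 6878 in siRNA, all siRNA libraries below all controls (log2 change -0.64, adjusted p = 0.000141). RPS29 and RPL36 fell by 0.69 and 0.63. RPL36A had the largest change, -0.72, at 47.4 to 64.5 reads in batch A controls, and its call was lost without control 1 or 4 or siRNA 1, 2 or 3 (highest adjusted p = 0.0944). Reads shared with near-identical processed pseudogenes make single ribosomal protein values uncertain. As a share of all reads, ribosomal protein transcripts took 5.83% ± 0.125 (SD, n = 4) in siRNA, 7.70% ± 0.420 (SD, n = 3) in batch A controls and 10.3% ± 0.653 (SD, n = 3) in batch B controls. Within batch A the exact two-sided permutation p was 0.0286 (adjusted 0.0381 over 4 shares), and against all 6 controls 0.0143 (adjusted 0.0286).

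Translation factors and tRNA charging enzymes shifted in the same direction. Of 32 translation factors tested, 19 were called lower and 0 higher, with a median of -0.24 (19 without control 4, 13 without control 1, 14 without control 2). EEF1A1, the elongation factor that brings charged tRNA to the ribosome, had 137840, 128873 and 112404 scaled reads in controls 1, 2 and 4 and 95969, 91901, 88593 and 89986 in siRNA. Every siRNA library was below every control (log2 change -0.46, adjusted p = 0.000871). EEF1B2, EIF5B and EIF4B fell by 0.48, 0.38 and 0.36. Of 19 cytosolic tRNA synthetases, 13 were called lower (14 without control 4, 11 without control 1 or control 2). They were led by VARS1 (-0.61), TARS1 (-0.47), LARS1 (-0.40) and YARS1 (-0.36). WARS1, which interferon is known to induce, was the 1 called higher (0.21), and it was not called without control 2, where 0 synthetases were called higher.

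Nucleotide and polyamine synthesis was lower in part. Of 29 genes tested, 17 were called lower and 1 higher, with a median of -0.19. The count fell to 13 without control 1 and 12 without control 2, and was 16 without control 4. PFAS, of purine synthesis, had 2738, 2709 and 2680 scaled reads in controls 1, 2 and 4 and 1724, 1595, 1624 and 1505 in siRNA, with no overlap (log2 change -0.75, SE 0.05, adjusted p = 6.72e-07). MTHFD1L, of the mitochondrial folate pathway, fell by 0.85, and DHODH, of pyrimidine synthesis, by 0.68. AMD1, which supplies decarboxylated S-adenosylmethionine for polyamines, fell by 0.47. NME2 had the largest change of the list, -1.13, at 25.8 to 32.7 reads in batch A controls. It overlaps NME1 and a readthrough transcript of both, its value is uncertain, and its call was lost without control 2 (adjusted p = 0.0701). TK1, thymidine kinase of S phase, was the 1 called higher (0.37), a call lost without control 1 or control 2. RRM1, RRM2 and TYMS, also needed for DNA precursors, had changes of 0.11, 0.06 and 0.06 and were not called.

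Of 15 genes of amino acid supply, 3 were called lower and 1 higher (4 and 1 without control 4), beside 25.5% of all genes called in either direction. SLC38A5, a glutamine and serine carrier, had 764, 831 and 773 scaled reads in controls 1, 2 and 4, 1331 to 1624 in batch B controls and 388, 384, 402 and 357 in siRNA. No siRNA library overlapped a control (log2 change -1.04, SE 0.08, adjusted p = 6.72e-07). BCAT1, of branched-chain amino acid breakdown, and SLC7A1, a cationic amino acid carrier, fell by 0.48 and 0.26. SLC7A11, the cystine carrier, rose by 0.70, from 197 to 291 in batch A controls and 42.9 to 73.9 in batch B controls to between 353 and 409. SLC7A11 was at -0.09 in the deposited values against batch B controls alone, but at 2.69 in recovered reads against them.

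Of all genes tested, 25.5% were called in either direction. Of 20 glycolysis genes 5 were called lower and 2 higher, with a median of -0.05 (5 and 4 without control 4, 3 and 2 without control 1, 2 and 2 without control 2). SLC16A1 (MCT1) fell by 0.40 and SLC16A3 (MCT4), the other lactate carrier, rose by 0.69, from 134, 156 and 199 in controls 1, 2 and 4 to 256, 232, 273 and 286. ENO2 rose by 0.52 and ENO1, its sister enolase, was called lower at -0.26. The call of ENO1 was lost without control 1 or 2 or siRNA 1, 2 or 4 (highest adjusted p = 0.0913). GAPDH (-0.02), TPI1 (0.03) and PGK1 (-0.09) were not called. Of 31 nuclear genes of oxidative phosphorylation, 8 were called lower and 0 higher with a median of -0.12, but 2 and 1 were called lower without controls 1 and 2, and 10 without control 4. NDUFA10, of complex I, fell by 0.29 and kept its call without any 1 library. UQCRC2, ATP5F1B and UQCRH had changes of -0.36, -0.28 and -0.24, and their calls were lost without control 2, those of ATP5F1B and UQCRH also without control 1 and that of UQCRC2 without siRNA 1 or 2 (highest adjusted p = 0.145, 0.0786 and 0.0894).

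Transcripts of the mitochondrial genome took 1.91% ± 0.126 (SD, n = 4) of reads in siRNA, 1.95% ± 0.214 (SD, n = 3) in batch A controls and 4.35% ± 0.831 (SD, n = 3) in batch B controls. Within batch A the groups overlapped (exact two-sided permutation p = 0.8, adjusted 0.8). Of 13 mitochondrial genes only MT-CO3 was called, at -0.40 (1 gene without control 4 as well), and that call was lost without controls 1 or 2 or siRNA 1, 2 or 3 (highest adjusted p = 0.204). The 3 batch B controls lay above all batch A libraries in this share.

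Among genes of the cell cycle, those of mitosis and of DNA replication were counted apart, and no difference between the phases was tested. Of 35 G2/M genes 13 were called lower and 0 higher, with a median of -0.15 (18 without control 4, 8 without control 1 and 8 without control 2). BUB1, a spindle checkpoint kinase, had 2198, 2144 and 1714 scaled reads in controls 1, 2 and 4 and 1612, 1625, 1473 and 1480 in siRNA. The groups did not overlap, and control 4 lay nearest to siRNA (log2 change -0.38, adjusted p = 0.00234). CDC25B, UBE2C and AURKB fell by 0.35, 0.33 and 0.32, and CCNB1 and PLK1 by 0.23 and 0.24. Of 34 G1/S genes 6 were called lower and 3 higher, with a median of -0.04 (6 and 4 without control 4, 3 and 1 without control 1, 3 and 2 without control 2), beside 13.1% and 12.3% of all genes. CCNE2 rose by 0.45, from 654 to 753 in batch A controls to 909.8 to 1000.4 in siRNA, and CCNE1, the other cyclin E, was called lower at -0.29. Without control 1 or control 2 the call of CCNE1 was lost (highest adjusted p = 0.0803). MCM10 and E2F3 fell by 0.29 and 0.26.

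Replication-dependent histone transcripts, which lack a poly(A) tail, were few in these libraries. They took 0.0126% ± 0.00061 (SD, n = 4) of reads in siRNA, 0.00794% ± 0.00112 (SD, n = 3) in batch A controls and 0.00428% ± 0.00035 (SD, n = 3) in batch B controls. The siRNA libraries lay above all controls (exact two-sided permutation p = 0.0286 within batch A, adjusted 0.0381). Of 16 genes tested 3 (18.8%) were called higher (4 without control 4, 2 without control 1), beside 12.3% of all genes. H1-2 had 306, 370 and 393 scaled reads in controls 1, 2 and 4 and 641, 648, 614 and 720 in siRNA (log2 change 0.88, adjusted p = 4.99e-05). H2AC6 rose by 0.65, and H4C8 had 0.72 with its call lost without control 1 or siRNA 3 (highest adjusted p = 0.0576).

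Genes known to be held down by MYC were mostly higher. Of 28 tested, 19 were called higher and 0 lower, with a median of 0.37 (20 without control 4, 14 without control 1, 15 without control 2). CDKN1A, the CDK inhibitor p21, had 625, 589 and 982 scaled reads in controls 1, 2 and 4, 334 to 423 in batch B controls and 1310, 1421, 1566 and 1387 in siRNA. Every siRNA library exceeded every control, and control 4 was the highest control (log2 change 0.99, SE 0.14, adjusted p = 0.000129). YPEL5 rose by 0.85, from 697 to 779 to between 1281 and 1384. GADD45G, of the growth arrest and DNA damage family, rose by 1.63 at low reads, from 5.46 to 8.38 in batch A controls to 19.7 to 28.8. Fewer than 4 controls held 10 or more reads of GADD45G, so it passed the filter only with the siRNA libraries. NDRG1 rose by 1.13, TXNIP, which restrains glucose uptake, by 0.55, and the transcription factors FOXO1 and FOXO3 by 0.48 and 0.45. CDKN1B, the CDK inhibitor p27, rose by 0.30. TSC22D3 was called higher at 1.16, but its call was lost without control 1, control 2 or any 1 siRNA library (highest adjusted p = 0.165). Against batch B controls alone it was at -0.78 in the deposited values and at 1.75 in recovered reads.

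Of 22 p53 target genes 9 were called higher and 2 lower, with a median of 0.21 (9 and 2 without control 4, 6 and 0 without control 1, 4 and 0 without control 2). CDKN1A is also a p53 target but was listed only above. TP53INP1 rose by 0.67, from 444 to 500.1 in batch A controls to between 749 and 781, and FDXR by 0.62. ZMAT3 rose by 0.37, and BBC3, which encodes PUMA, by 0.49, a call lost without control 2 (adjusted p = 0.0501). TIGAR and TRIAP1 were called lower (-0.34 and -0.32), but not without control 1 or control 2. Of 23 regulators of cell death 10 were called higher and 0 lower, with a median of 0.21 (9 and 1 without control 4), on both sides of the process. The counts were 9 and 0 without control 1 and 7 and 0 without control 2. MCL1, which protects cells, had 31874, 31610 and 35257 scaled reads in controls 1, 2 and 4, 12308 to 13088 in batch B controls and 46772, 47137, 46808 and 47430 in siRNA (log2 change 0.52, adjusted p = 2.79e-05). The siRNA libraries lay together above every control. BIRC3, an inhibitor of apoptosis, rose by 0.57, as did the death-promoting BMF (0.60), APAF1 (0.47) and BIK (0.46). BCL2 (0.08) and BAX (0.04) were not called.

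Interferon-induced genes had the highest median of the lists with 10 or more genes tested. Of 28 tested, 19 were called higher and 1 lower, with a median of 0.77 (20 higher without control 4, 15 without control 1, 15 without control 2). PARP9 had 128, 122 and 304 scaled reads in controls 1, 2 and 4, 95.4 to 139 in batch B controls and 501, 497, 452 and 496 in siRNA. The siRNA libraries exceeded all controls, and control 4 stood between the groups (log2 change 1.53, SE 0.24, adjusted p = 0.000311). EPSTI1, IFIT3 and IFIT2 had larger changes of 1.97, 1.95 and 1.58 at low reads, with at most 18.4 in any batch A control and 15.4 to 44.7 in siRNA. Their calls were lost without control 1 (highest adjusted p over the libraries left out = 0.0954, 0.0746 and 0.0788), and that of EPSTI1 also without control 2, of IFIT3 without siRNA 2 and of IFIT2 without control 2, control 4, siRNA 3 or siRNA 4. EPSTI1 was under 10 reads in all 6 controls, so it passed the filter only through the siRNA libraries and could not be fitted with any 1 of them left out. IFIT2 reached 10 reads in no control but control 3 (11.4), so it too passed only with the siRNA libraries. IRF1 and IRF7, transcription factors of the response, rose by 0.48 and 1.01 and OAS3 by 1.05. MX2 was the 1 called lower (-0.42), and ISG15 (0.22) and IFI6 (0.78) were not called. A further 14 of the 42 listed genes did not pass the filter on low reads. That filter can be met by the siRNA libraries alone, but not by the batch A controls alone. The median of 0.77 and its rank among the lists are therefore not free of this selection, and its size was not tested.

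Of 18 sensors of RNA and DNA tested, 4 were called higher and 2 lower, with a median of 0.08 (5 and 2 without control 4, 2 and 0 without control 1 or control 2). These are 22.2% and 11.1%, beside 12.3% and 13.1% of all genes. AIM2, a sensor of cytosolic DNA, had 507, 450 and 566 scaled reads in controls 1, 2 and 4 and 733, 801, 726 and 797 in siRNA, all above the controls (log2 change 0.59, adjusted p = 0.00112). TLR7 rose by 0.45. CGAS and IFIH1, which encodes the RNA sensor MDA5, were called at 0.41 and 0.35, and TARBP2, a partner of DICER1, at -0.28. These 3 calls were lost without control 1 or control 2 and without siRNA 2 or 4, those of CGAS and IFIH1 also without siRNA 1, and that of IFIH1 without control 4 or siRNA 3 as well (highest adjusted p = 0.0819, 0.167 and 0.122). DICER1 (0.06), AGO2 (0.15), EIF2AK2 (0.15) and MAVS (0.11) were not called.

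The stress responses went different ways. Cytosolic heat shock genes were lower in 13 of 17 tested and higher in 1, with a median of -0.30 (12 without control 4, 10 without control 1, 9 without control 2). HSP90AB1, the constitutive HSP90, had 48982, 49017 and 41578 scaled reads in controls 1, 2 and 4 and 32394, 31989, 30890 and 30652 in siRNA (log2 change -0.56, adjusted p = 7.5e-05). Every siRNA library was below every control. The co-chaperones FKBP4 and DNAJB1 fell by 0.54 and 0.43, and HSF1, the regulator of the response, by 0.20. HSPA6, a strictly inducible member, was the 1 called higher (1.60), at 5.46 to 10.9 reads in batch A controls and 23.5 to 33.4 in siRNA, and its call was lost without control 1 (adjusted p = 0.0538). Fewer than 4 controls held 10 or more reads of HSPA6, so it passed the filter only with the siRNA libraries. The unfolded protein response, by contrast, had 14 of 23 called higher and 0 lower, with a median of 0.22 (13 without control 4, 10 without control 1, 11 without control 2). DNAJC3, CRELD2 and the chaperone HSPA5 rose by 0.56, 0.43 and 0.28. DNAJB9 was called at 0.42, and this call was lost without control 1, 2 or 4 or siRNA 1, 2 or 4 (highest adjusted p = 0.0758). DNAJB9 was at -0.13 in the deposited values against batch B controls alone, but at 1.65 in recovered reads against them.

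The integrated stress response, run by ATF4, divided into 6 called higher and 4 lower of 20 tested (9 and 3 without control 4, 4 and 3 without control 1, 4 and 2 without control 2). ATF4 itself fell by 0.32. PPP1R15A, which restores translation after stress, rose by 0.57, from 653, 744 and 1029.7 in controls 1, 2 and 4 to 1191, 1175, 1187 and 1171, and ALDH1L2 rose by 1.04. CBS and DDIT3, which encodes CHOP, were called at -0.53 and 0.53. Both calls were lost without control 1, control 2, siRNA 2 or siRNA 4, that of CBS also without control 4 and that of DDIT3 without siRNA 3 (highest adjusted p = 0.143 and 0.171). In the deposited values against batch B controls alone ALDH1L2 was at -1.43 and DDIT3 at -1.03. In recovered reads against the same controls ALDH1L2 was at 2.08 and DDIT3 at 0.61. ASNS (-0.16) and PHGDH (-0.13), known ATF4 targets, were not called.

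Of 17 genes of oxidative and metal stress 6 were called higher and 0 lower, with a median of 0.26 (8 and 1 without control 4). The counts were 5 and 0 without control 1 and 6 and 0 without control 2. MT2A, a metallothionein, had 57.8, 60.5 and 177 scaled reads in controls 1, 2 and 4 and 306, 235, 261 and 254 in siRNA, all above the controls (log2 change 1.61, SE 0.28, adjusted p = 0.000815). HMOX1, haem oxygenase 1, rose by 1.29, from 176, 196 and 369 to between 533 and 615. FTL and FTH1, the ferritin chains, rose by 0.56 and 0.30, with FTL at 15488, 17007 and 20896 in controls 1, 2 and 4 and 24502 to 27451 in siRNA. In the deposited values against batch B controls alone HMOX1 was at -0.24 and FTL at -0.33. In recovered reads against the same controls HMOX1 was at 2.46 and FTL at 0.98. MT1F was called at 2.18 with 0 to 8.38 reads in batch A controls, and its call was lost without control 1 (adjusted p = 0.15). All 6 controls were under 10 reads, so MT1F passed the filter only through the siRNA libraries and could not be fitted with any 1 of them left out.

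Among NF-kB targets 13 of 27 were called higher and 1 lower, with a median of 0.21 (11 and 1 without control 4, 10 and 0 without control 1). CCL3, a chemokine, had 79.6, 93.8 and 106 scaled reads in controls 1, 2 and 4 and 214, 242, 264 and 236 in siRNA, with no overlap (log2 change 1.35, SE 0.14, adjusted p = 1.54e-05). CCL4 rose by 0.83, the adhesion molecule ICAM1 by 0.60 and CYLD, a deubiquitinase that restrains the pathway, by 0.54. In the deposited values against batch B controls alone CCL4 was at -0.30, but in recovered reads against them it was at 1.32. LTB, lymphotoxin beta, was the 1 called lower (-0.84), but not without control 1 or control 2. NFKBIA (0.16) and TNFAIP3 (0.21), feedback inhibitors, were not called. Of 25 immediate early genes 10 were called higher and 2 lower (14 and 2 without control 4), with a median of 0.47. Without control 1 or control 2 the counts were 9 and 0. FOS had 15.6, 9.07 and 52.8 in controls 1, 2 and 4 and 71.7, 80.7, 97.6 and 76.6 in siRNA, where control 4 lay nearest to siRNA (log2 change 1.98, SE 0.43, adjusted p = 0.00337). DUSP4 and DUSP5, phosphatases that switch off MAP kinases, rose by 1.68 and 1.00, and EGR1 by 0.82. SPRY2 and DUSP1 were called lower (-0.70 and -0.49), but not without control 1 or control 2.

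Genes of B-cell maturation formed one of the broader sets of increases. Of 24 germinal centre and plasma cell genes, 16 were called higher and 0 lower, with a median of 0.44 (17 without control 4, 13 without control 1, 13 without control 2, and 9 against all 6 controls). PRDM1, which encodes BLIMP1, had 363, 342 and 732 scaled reads in controls 1, 2 and 4, 132 to 165 in batch B controls and 1142, 1219, 1134 and 1153 in siRNA. All siRNA libraries exceeded all controls, with control 4 between them (log2 change 1.37, SE 0.19, adjusted p = 0.000112). SDC1, the plasma cell surface protein CD138, rose by 1.34, from 127, 131 and 267 to between 392 and 441, and XBP1 and JCHAIN rose by 0.51 and 0.56. BCL6 had a change of 0.69 (adjusted p = 0.00476), with 1479 to 2570 in batch A controls, 181 to 265 in batch B controls and 2783 to 2984 in siRNA. LMO2 rose by 1.41, SERPINA9 by 0.93 and S1PR2 by 0.91. MME, which encodes CD10, and MYBL1 were not called (0.15 and 0.60).

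Of 24 B-cell receptor genes 13 were called higher and 0 lower, with a median of 0.23 (12 and 1 without control 4). Without control 1 or control 2 the counts were 11 and 0. FCRL5, an Fc receptor-like protein of B cells, had 1526, 1386 and 1525 scaled reads in controls 1, 2 and 4 and 2661, 2773, 2771 and 2657 in siRNA, with no overlap and with control 4 among the other controls (log2 change 0.88, SE 0.06, adjusted p = 4.86e-07). FCRL2, CD22 and CD72 rose by 0.97, 0.75 and 0.98, and PTPN6, a phosphatase that CD22 recruits, by 0.66. The signalling kinases SYK (0.02), LYN (0.05) and BTK (-0.12) were not called. Of 22 B lineage factors 8 were called higher and 2 lower (7 and 4 without control 4). The counts were 8 and 2 without control 1 and 6 and 2 without control 2. EBF1, a pioneer factor of the lineage, rose by 0.65, and POU2F2 and its coactivator POU2AF1 by 0.67 and 0.44, while ID3 fell by 0.31. PAX5 (0.08) and IKZF1 (-0.15) were not called. Of 13 MHC class II genes only HLA-DMA was called, higher by 0.42 (1 without control 4), beside 12.3% of all genes called higher.

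Genes of lysosomes and autophagy were higher in 20 of 29 tested and lower in 0, with a median of 0.35 (21 and 1 without control 4, 17 without control 1, 20 without control 2). CTSH, a lysosomal protease, had 1038, 932 and 1685 scaled reads in controls 1, 2 and 4, 140 to 191 in batch B controls and 2198, 2310, 2356 and 2291 in siRNA. All siRNA libraries were above all controls (log2 change 0.96, SE 0.15, adjusted p = 0.000369). SQSTM1, the autophagy receptor p62, rose by 0.74, GABARAPL1, of the autophagosome membrane, by 0.79 and WIPI1 by 0.82. WIPI1 was at -0.04 in the deposited values against batch B controls alone, but was still higher in recovered reads against them. The regulators TFEB (0.28) and TFE3 (0.25) were not called. Of 21 cholesterol synthesis genes 3 were called lower and 0 higher (4 without control 4, 2 without control 1 or control 2), with DHCR7, of the last step of the pathway, at -0.47. The share called lower was 14.3%, beside 13.1% of all genes. Of 23 actin genes 4 were called higher and 3 lower (4 and 3 without control 4, 3 and 2 without control 1, 2 and 1 without control 2), with VIM, which encodes vimentin, at -0.39 and ARPC2 at 0.30. CORO1A and ACTN4 were called at -0.20 and -0.18, with calls lost without control 2 (adjusted p = 0.173 and 0.0612) and siRNA 4, and also control 1 and siRNA 2 for CORO1A and siRNA 1 for ACTN4.

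**Figure D4:**
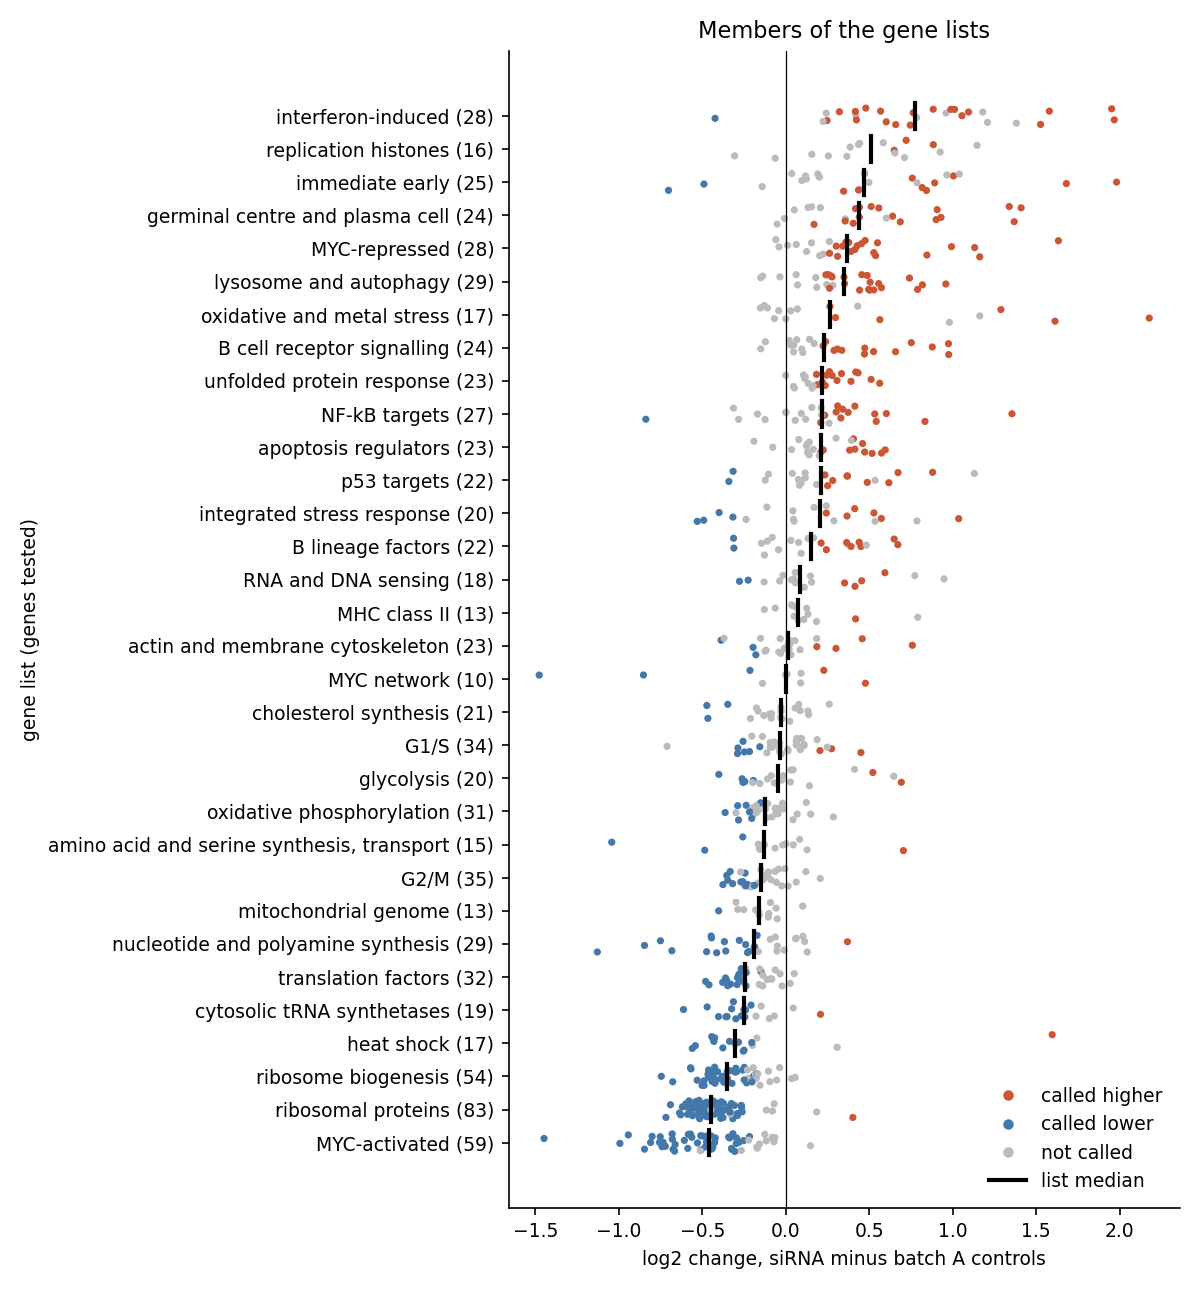
Log2 change of every tested member of the lists with at least 10 genes tested, ordered by list median (black bar) and coloured by call. MYC-activated and ribosomal protein genes lie to the left (medians -0.46 and -0.45), and interferon-induced genes to the right (0.77).

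**Figure D5:**
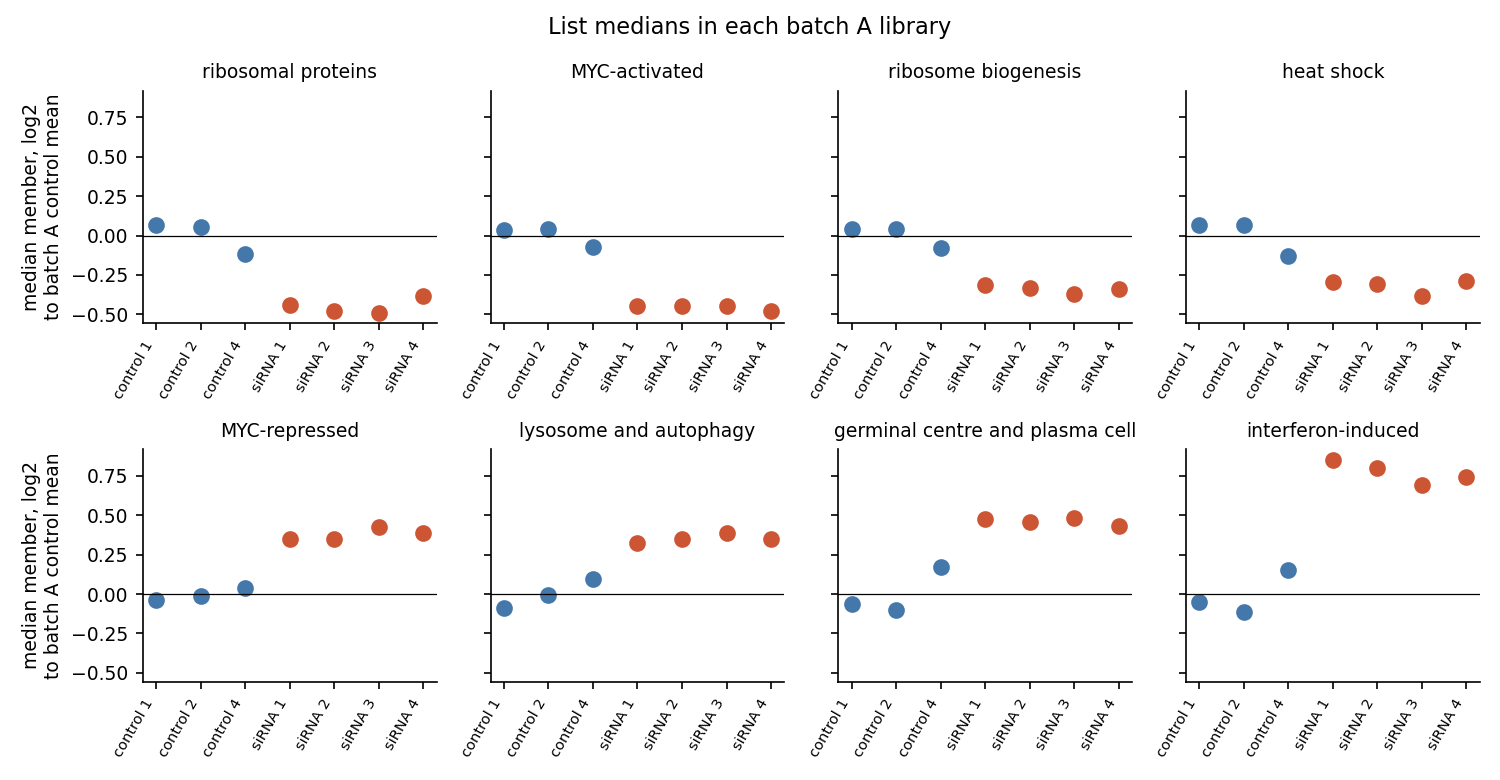
Median member of 8 lists in each batch A library, as log2 relative to the mean of the 3 batch A controls. All 4 siRNA libraries lie apart from the 3 controls in each panel, and control 4 is the control nearest to them, for example 0.17 for germinal centre and plasma cell genes against 0.43 to 0.48 in siRNA.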

How the data were processed

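RNA-seq libraries of cells described as U2932 were analysed, 4 with siRNA and 6 with PBS at 48 h. HTSeq 0.11.0 counts came from HISAT2 2.2.1 alignments to GRCh38 after Trimmomatic, with SAMtools 1.7 also named, per the submitters' processing notes; the batch step and the use of strand are not given in the sources used here. Total RNA and mRNA kits are both named per the labels' protocols. The deposited values are read counts per gene changed by a shift and a scale per gene and batch, some below 0, and not divided by depth. Within a batch a gene's values are whole steps apart, and from these whole reads were recovered (relative tolerance 0.001) for 21864 of 21877 adjusted genes; another 39664 were already whole. The planned input was the deposited values. Recovered reads became the main input after the results of both had been seen, and fits on the deposited values are kept among the alternatives.

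Reads were scaled by the median of ratios, genes with 10 or more scaled reads in at least 4 libraries were tested, and limma 3.58.1 (R 4.3.3, mean-variance trend, two-sided, Benjamini-Hochberg, threshold 0.05) was fitted to log2(scaled reads + 1) with group and batch. The fit was also run on simulated data with few changed genes and no outlying control. That run therefore does not show how the fit behaves with many changed genes or with control 4. Shares and MYC had exact permutation tests over every arrangement of the libraries (Python 3.11.15, NumPy 2.4.6). SciPy 1.17.1 was used in the recovery of whole reads. In all 32 alternatives were fitted, 10 of them leaving out a library, and those on deposited values or with voom weights were added after seeing the data. At one stage 2 of them, on deposited values against batch B controls and with aligned batches, were dropped after their reversals had been seen, and they were then restored.

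The members and gene lists were chosen with earlier results of these data known. Named genes are MYC, the 12 largest increases and 12 largest decreases among called genes with a mean of at least 100 scaled reads in a group and no overlap with the 6 controls, ranked by the smaller change against either control batch, up to 4 called members of each list by the same rank, and the MYC partners. The rank favours genes that also differ between control batches. Other genes were named after their values were seen, and some genes that the rule names are not reported here. The motif share was first looked at with 1 start per gene and then with every listed start, and the printed windows were chosen after values and matches were seen. Symbols were matched for 61369 of 61541 gene identifiers. The PNA and 72 h libraries were not analysed here, other than PNA libraries in the fits of all 14 libraries.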

Additional observations from a re-analysis of the deposited data

Results flagged for a closer look

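In groups of 4 to 10 libraries, a library was singled out where its gap to the nearest other exceeded Dixon's 95% critical value for the range. Of 306 groups tested 18 were, beside about 1 in 20 by chance, and 10 of the 18 were control 4 among the 6 controls. In scaled reads, control 4 was the highest control for SOCS3 (41.1, others 0 to 13.3), ENSG00000273272 (28.5, others 1.59 to 7.81), IL10 (122, others 1.89 to 34.3), SGK1 (82.1, others 3.79 to 31.2) and GNB3 (117, others 52.4 to 65.2). It was also the highest for MTSS1 (171, others 35.0 to 72.6), PARP9 (304, others 95.4 to 139), ALDH1L2 (121, others 28.6 to 55.5) and MT2A (177, others 57.8 to 98.5), and the lowest for DHCR7 (1078, others 1207 to 1250). In each of the 10 its value lay on the side of the siRNA libraries.

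Among the siRNA libraries, siRNA 3 stood apart for VWCE (54.8, others 43.0 to 44.7), H4C8 (110, others 74.3 to 75.7), PARP9 (452, others 496 to 501), DNAJB9 (386, others 437 to 447) and HSPA6 (33.4, others 23.5 to 24.0). siRNA 4 stood apart for POU2AF1 (11348, others 11501 to 11528) and RPL36A (47.0, others 29.6 to 32.2), and siRNA 1 for NPW (2.68, others 16.3 to 18.8).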

How the results depend on the processing

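MYC was lower in all 32 alternatives, between -3.48 and -0.42 on the log2 scale, and between -1.52 and -1.45 with any 1 library left out. The -0.42 came with the batches aligned, where a constant was added to MYC in every batch A library. The number of genes called higher ranged from 1002 to 2064 and lower from 1118 to 2070 with 1 library left out, and both were lowest without control 2 (1002 and 1118) and next without control 1 (1046 and 1153). Calls were 832 higher and 875 lower over all 14 libraries, 5038 and 4420 against batch B controls only, 920 and 958 in deposited values against batch B controls only, 143 lower with no scaling, and 1115 lower in deposited values over all 14 libraries. Deviations of same-numbered siRNA and control libraries had correlations of 0.066, -0.078, -0.058 and -0.0035, and those of unlike number -0.121 to 0.0936. Values this small cannot tell if the numbers pair the samples, and siRNA 3 and control 3 are in different batches. With the replicate block 2264 genes were called higher, 2242 lower and MYC was at -1.49.

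The deposited values against batch B controls only turned the direction of MXD1 (-0.0249), MXD3 (-0.0586), TSC22D3 (-0.784), SLC7A11 (-0.0859), ALDH1L2 (-1.43), DDIT3 (-1.03), DNAJB9 (-0.125), HMOX1 (-0.242), FTL (-0.333), CCL4 (-0.304), WIPI1 (-0.0406) and MGA (0.113). In the recovered reads against batch B controls only, none of these genes turned. With no scaling the sign turned for MNT (0.010), MLX (0.0852), MGA (0.223), CORO1A (0.0291) and ACTN4 (0.0453). Against all 6 controls it turned for MXD4 (-0.0863), MAX (-0.255) and MLXIP (-0.148), and against batch B controls only for MXD4 (-0.396), MAX (-0.513) and MLXIP (-0.383). MAX, not called, was also below 0 within batch A only (-0.00922), in deposited values (-0.0268), with their batches aligned (-0.0274) and with upper-quartile scaling (-0.0259), and ranged from -0.0137 to 0.0316 with 1 library left out. MGA, not called, was above 0 over all 14 libraries (0.0894), in deposited values over all 14 (0.0319) and with all 6 controls (0.0546), with quantile normalization (0.0108), the replicate block (0.0268) and scaling to the total (0.0449), and ranged from -0.0422 to 0.0298 with 1 library left out. The share of reads in the 10 most abundant genes differed between siRNA and all 6 controls by -0.105 percentage points (exact two-sided permutation p = 0.729). Within batch A it differed by 0.305 (exact permutation p = 0.0286, the smallest that test allows, adjusted 0.0381 over 4 shares). In deposited values the difference was 0.124. With 1 library left out it was -0.212 to 0.0694, the highest without unnumbered control a. The causes were not tested. Depth limits the precision of genes of few reads.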
